A study of Mus musculus with 135 samples.

Results

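The comparison described here asked whether repeat social defeat (RSD) was accompanied by a different change in brain messenger RNA in sickle cell mice than in control mice. It is the interaction of genotype and RSD: the difference between SS + RSD and SS mice minus the difference between AA + RSD and AA mice, on the log2 scale, computed in the cerebral cortex and in the hippocampus separately. The members were all libraries whose labels give no minocycline and a known group, 56 of the 135 libraries of the series. Of these, 29 were cortical libraries from 12 AA, 3 AA + RSD, 8 SS and 6 SS + RSD mice. The other 27 were hippocampal libraries from 11 AA, 3 AA + RSD, 7 SS and 6 SS + RSD mice. Each library of a tissue came from a mouse of its own number, and the cortical and hippocampal libraries of mouse 9674, an AA + RSD mouse, were put in each other's place because their region markers went against their labels.

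All mice were male Townes mice. In this strain human globin genes replace those of the mouse in every cell, with the sickle allele in SS (HbSS) and the normal allele in AA (HbAA) mice, so that AA mice are humanized controls and not wild type mice. In the cohort for which the study's methods give an age, the mice were 6 months old. An aggressive male was put daily into the home cage of AA + RSD or SS + RSD mice, while AA and SS mice were not exposed to RSD, and none of these groups received minocycline. Cage mates shared each session and the labels do not name the cages. The methods describe behavioral tests that included fear conditioning before the mice were killed. With bulk tissue, fewer cells of a type and less RNA per cell cannot be told apart.

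Sickle hemoglobin polymerizes when it gives up oxygen, which makes red cells rigid and short-lived and exposes the brain to anemia, free heme and obstructed small vessels. RSD is a model of social stress that activates the sympathetic system and the hypothalamic-pituitary-adrenal axis; the glucocorticoid released at its end binds a nuclear receptor that induces genes such as Fkbp5, whose product lowers the receptor's own sensitivity. A positive interaction means that a gene's difference with RSD was more positive in SS than in AA mice, whichever of the genotypes supplied it, and a negative one that it was more negative.

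The region markers showed why the libraries of mouse 9674 were exchanged. They were 10 genes high in cortex, among them Rorb, Tbr1 and Cux2, and 10 high in hippocampus, among them the dentate granule cell genes Prox1 and C1ql2. In the library labelled as the cortex of mouse 9674, the mean log2 CPM (the count scaled to a library of 1e+06 reads on genes) was 3.39 for the cortical and 5.25 for the hippocampal markers. In the library labelled as its hippocampus the means were 5.48 and 0.89. All other libraries lay on the side of their own label. The exchange was inferred from expression and no label records it, so results are also given without this mouse and with the labels as given.

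**Figure D1:**
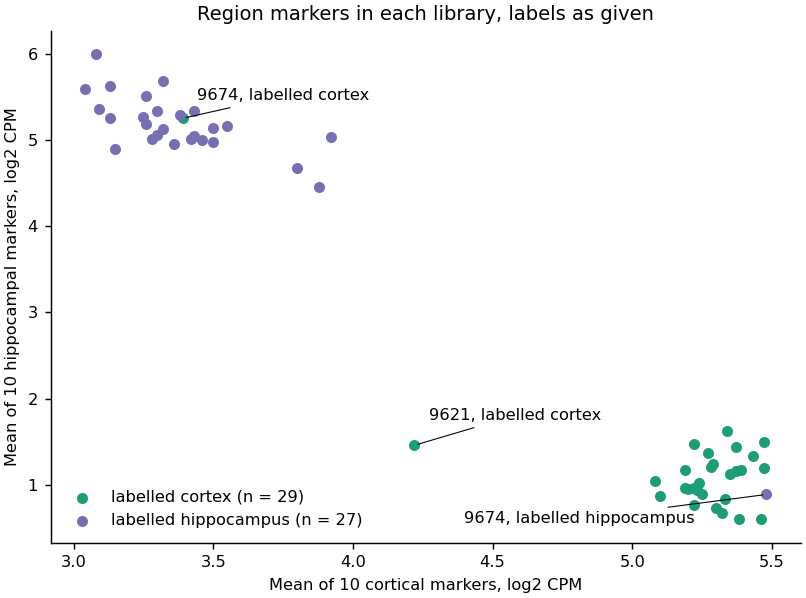
Mean log2 CPM of 10 hippocampal markers (vertical axis) against that of 10 cortical markers (horizontal axis), with 1 point per library and labels as given. The library labelled as the cortex of mouse 9674 lies among the hippocampal libraries (3.39 and 5.25), and the one labelled as its hippocampus among the cortical libraries (5.48 and 0.89).

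Further libraries stood apart. The cortex of the SS + RSD mouse 9621 had a mean of 4.23 for the cortical markers, against 5.21 or more in the other SS + RSD mice, and of 6.35 for 12 striatal markers, against 4.42 or less. The cortex of the SS mouse 9903 had a choroid plexus mean of 3.4, against -0.06 or less in the other SS mice. Red cell genes separated the genotypes in both tissues (in the cortex, medians of 0.05 in AA, 0.27 in AA + RSD, 2.08 in SS and 2.42 in SS + RSD mice) except in the AA mouse 5844, at 2.04. Reads on genes ranged from 16295042 to 70016768 per cortical library and from 12869149 to 68729401 per hippocampal library. Mouse numbers fall into a series A (5349 to 5400 and 9615 to 9674) and a series B (5785 to 5900 and 9822 to 9903). All mice given RSD belonged to series A, beside 4 AA and 2 SS controls with cortical and 3 AA and 2 SS controls with hippocampal libraries, so RSD and series were partly confounded. A difference between the series that is the same in both genotypes would leave the interaction unchanged only if AA and SS controls had the same mix of series; in the cortex 4 of 12 AA and 2 of 8 SS mice were of series A.

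No gene passed the test for an interaction in either tissue. In the cortex 0 of 19811 genes (0%) were called by edgeR's quasi-likelihood test at a Benjamini-Hochberg adjusted p under 0.05, and the smallest adjusted p was 0.332. At an unadjusted p under 0.05 there were 816 genes (4.12%), 302 with a positive and 514 with a negative interaction. In the hippocampus 0 of 20532 genes (0%) were called, with a smallest adjusted p of 1, and 521 genes (2.54%) had an unadjusted p under 0.05, 317 positive and 204 negative. DESeq2 called 1 gene in cortex and 0 in hippocampus, where 820 and 605 genes had an unadjusted p under 0.05, and edgeR's likelihood-ratio test also called 1 and 0, with 750 and 410. These counts of 0 stood when mouse 9674 was left out, with 738 and 635 genes at an unadjusted p under 0.05. The unadjusted count depended on single AA + RSD mice: it was 1702 in the cortex without mouse 9643, 1242 of them positive, and 334 in the hippocampus without mouse 9646.

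Among 13334 cortical genes whose mean log2 CPM was 1 or more, the median standard error of the interaction was 0.18 and the median half-width of its 95% interval 0.36, on the log2 scale. For 12041 of them (90.3%) the whole interval lay within a 2-fold difference in either direction. In the hippocampus the median standard error over 13480 such genes was 0.18 and the half-width 0.38, and the intervals of 12174 genes (90.3%) lay within 2-fold. The AA difference rested on 3 AA + RSD mice. A smaller interaction than these intervals allow was not detectable with these mice, and a p that missed the threshold does not show that the genotypes responded alike.

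Across genes, the difference with RSD in SS mice and that in AA mice went largely the same way, and this depended on which controls were used. In the cortex Pearson's r over the 13334 genes was 0.76 (Spearman's rho 0.66), and 78% of genes had the same sign in both genotypes. With mice of series A only, where RSD and control mice have numbers of the same range, r was 0.35, rho 0 and the share 49.3%. In the hippocampus r was 0.78 (rho 0.7) with 76.2% of the same sign over 13480 genes, and 0.47 (0.21) with 57.9% in series A only. These are descriptions: genes are not independent, the 2 differences share no mouse, and in both of them the RSD mice were of series A while most controls were of series B. The SD over genes of the cortical differences was 0.39 for SS and 0.26 for AA mice, while hippocampal SDs were 0.34 and 0.3. With mice of series A only, cortical SDs were 0.24 and 0.21, and hippocampal SDs 0.3 and 0.28. With the labels as given, cortical SDs were 0.39 and 0.34, and both hippocampal SDs were 0.34. The wider spread in SS mice thus depended on the controls and labels used, and its cause was not tested.

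**Figure D2:**
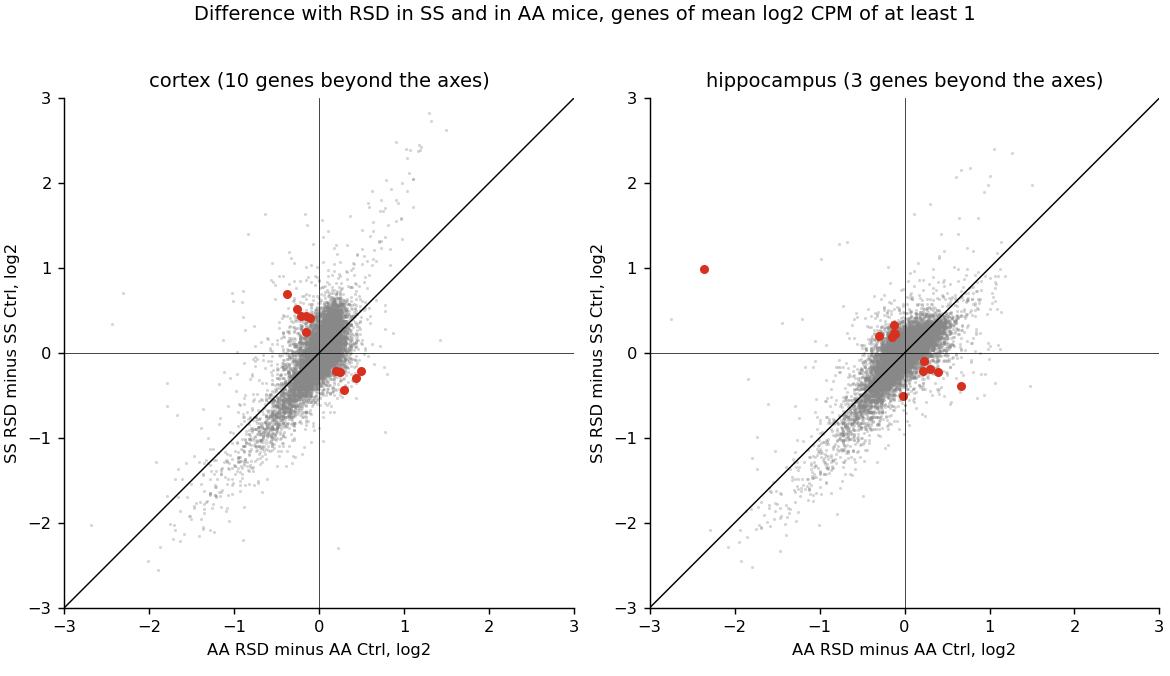
Difference between SS + RSD and SS mice (vertical axis) against that between AA + RSD and AA mice (horizontal axis), in log2 units, for genes of mean log2 CPM of at least 1; 10 cortical and 3 hippocampal genes lie beyond the axes. Most points follow the diagonal of equal differences (r of 0.76 and 0.78); the leading genes of each direction, in red as far as they are reported, lie off it, and none was called.

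With the labels as given, the same test called 9 of 19894 cortical genes (0.0452%), all with a negative interaction, and 0 of 20550 hippocampal genes (0%), where 1403 had an unadjusted p under 0.05 and the smallest adjusted p was 0.402. The 9 genes were Ttr, Folr1, Mfrp, Slc4a5, Wfdc2, Tmem72, F5, Lct and Rras2. Ttr (transthyretin, chromosome 18: 20797253 to 20807467, forward strand, GRCm39), Folr1 (a folate receptor), Slc4a5 (a bicarbonate transporter) and Tmem72 are typical of the choroid plexus epithelium, which lies against the hippocampus in the ventricle, and Lct marks dentate granule cells. With the labels as given, cortical Ttr was 7.08, 20.5 and 5180 CPM in the 3 AA + RSD mice. With the exchange it was 7.02, 10.7 and 20.7. The interaction of Ttr was -11.54 before the exchange (adjusted p = 0.0287, edgeR's quasi-likelihood test) and -4.48 ± 1.57 (SE; adjusted p = 0.931) after it.

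After the exchange the highest cortical Ttr was in a control mouse. Cortical Ttr was 2.23, 7.01 and 1090 CPM (lowest, median, highest) in 8 SS mice, and the highest was mouse 9903. It was 2.34, 6.95 and 12.1 in 6 SS + RSD mice and 3.45, 10.6 and 28.4 in 12 AA mice, so that all groups overlapped. Cortical Lct was 1.61, 2.17 and 39.7 CPM in AA + RSD mice with the labels as given and 1.59, 1.63 and 2.19 with the exchange, within the 0.956 to 3.4 of AA mice. Its interaction changed from -3.42 to -0.42 ± 0.39. Rras2, a small GTPase related to Ras, had -0.67 before and -0.33 ± 0.13 after the exchange. Slc4a5, Wfdc2 and Tmem72 did not pass the filter on low counts in the cortex after it. In series A only, where mouse 9903 is absent, the interaction of Ttr was -1.01 (unadjusted p = 0.254). In the hippocampus, the choroid plexus list spread widely within each group (mean log2 CPM from -0.24 to 6.05 in SS + RSD and from 1.84 to 5.36 in AA + RSD mice), and its median interaction of 1.18 was -0.28 without the SS + RSD mouse 9615 and 3.19 without mouse 9674.

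Among cortical genes with a leading negative interaction, Pak7 (chromosome 2: 135920311 to 136229887, reverse strand; Pak5 in current annotation) encodes a p21-activated kinase of neurons. It was at 74.5, 77.8 and 90.9 CPM in AA + RSD mice and at 49.3, 57.9 and 65.3 in AA mice, without overlap, while SS mice (56, 58.1 and 84.4) and SS + RSD mice (39.1, 56.4 and 67.9) overlapped. The difference with RSD was -0.21 ± 0.1 (SE) in SS and 0.49 ± 0.11 in AA mice, and the interaction -0.7 ± 0.15 (unadjusted p = 8.41e-05, adjusted p = 0.833, edgeR's quasi-likelihood test). In series A only it was -0.95 (unadjusted p = 0.000465), and over all alternatives it lay between -0.95 and -0.39. Hecw2, a ubiquitin ligase, was at 71.4, 91.8 and 93.4 CPM in AA + RSD and at 44.3, 60.5 and 84 in AA mice, and at 46.1, 54.8 and 65.1 in SS + RSD and 55.1, 69.7 and 79.6 in SS mice, which gave -0.74 ± 0.17 (adjusted p = 0.931). The kinase gene Lmtk2 (-0.46 ± 0.12), the forkhead transcription factor gene Foxo3 (-0.41 ± 0.1) and the integrin gene Itgb3 (-0.72 ± 0.19) had differences from 0.2 to 0.29 in AA and from -0.44 to -0.21 in SS mice, each with an adjusted p of 0.931. These 5 genes kept the negative sign under every alternative. They were chosen by their p in the main fit and the alternatives reuse its libraries, so a kept sign is no further support. With the labels as given, where the displaced library of mouse 9674 was the lowest AA + RSD value of each, their interactions lay between -0.48 and -0.1. Leading genes and list members named here and below were chosen by their small p. A lack of overlap between their groups is therefore no further support, and its share over all genes was not counted.

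Among the leading positive genes of the cortex, Adi1 (chromosome 12: 28725183 to 28797609, forward strand), is an enzyme of the methionine salvage pathway. It was at 27.6, 42.6 and 58.2 CPM in AA mice and at 25.3, 28.1 and 48.3 in AA + RSD mice, and at 22.3, 35.3 and 46.3 in SS and 37.5, 55.5 and 71.2 in SS + RSD mice. The ranges overlapped within each genotype. The difference was 0.69 ± 0.17 in SS and -0.38 ± 0.21 in AA mice, an interaction of 1.08 ± 0.28 (unadjusted p = 0.00055, adjusted p = 0.931), and 0.75 in series A only (unadjusted p = 0.0769). Of its exonic bases 45.5% overlap Trappc12 on the other strand; the strand setting of the counting is not given in the sources used here.

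Samd14 (0.59 ± 0.18), the antiproliferative gene Btg3 (0.65 ± 0.2), the synaptic adhesion gene Il1rapl2 (0.52 ± 0.16), the zinc finger gene Zfp37 (0.4 ± 0.13) and the cytokine gene Il16 (0.78 ± 0.25) followed, each with an adjusted p of 0.931. In all 5 the difference was positive in SS mice, from 0.25 to 0.52, and negative in AA mice, from -0.26 to -0.11. Samd14 was at 54.4 CPM in the cortex of mouse 9621 and at 29.9 to 54.4 (median 35) over SS + RSD mice, against 22.1 to 29.5 in SS mice. Of its exonic bases 48.2% overlap Pdk2 on the other strand, and for Btg3, Il16 and Zfp37 the share with other genes was 20.3%, 21.2% and 13.2%. Il16 turned with the labels: it was at 2.37, 2.55 and 45.2 CPM in AA + RSD mice with the labels as given and at 2.07, 2.39 and 2.53 with the exchange, and its interaction was -2.05 and 0.78.

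In the hippocampus the smallest p belonged to Trpt1 (chromosome 19: 6964542 to 6978282, forward strand), a tRNA phosphotransferase. It was at 7.78, 8.52 and 9.02 CPM in 11 AA mice and at 9.42, 11 and 11.1 in AA + RSD mice, without overlap. In SS mice it was at 8.6, 9.41 and 10.6 and in SS + RSD mice at 7.9, 8.24 and 9.46, which overlapped. The interaction was -0.49 ± 0.1 (unadjusted p = 6.72e-05, adjusted p = 1, edgeR's quasi-likelihood test), and 46.1% of its exonic bases overlap Fermt3 on the other strand. Tekt5, a structural gene of cilia and flagella, was at 9.32, 10.2 and 15.6 CPM in AA + RSD and 3.96, 7.84 and 9.9 in AA mice, and at 4.04, 5.54 and 8.97 in SS + RSD and 6.01, 7.55 and 8.95 in SS mice, an interaction of -1.06 ± 0.27 (adjusted p = 1).

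The other negative genes were the long noncoding RNAs 2810029C07Rik (-0.49 ± 0.14) and D330023K18Rik (-0.62 ± 0.2), the calcium-dependent kinase gene Camk1 (-0.32 ± 0.1) and Fahd2a (-0.43 ± 0.15), each with an adjusted p of 1. 2810029C07Rik was lower in SS + RSD mice (7.21, 8.98 and 10.6 CPM) than in all SS mice (12, 12.5 and 14.4), with -0.02 ± 0.11 in AA mice. Of the exonic bases of Fahd2a and D330023K18Rik 52% and 51.4% overlap genes on the other strand.

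Among leading positive genes of the hippocampus, Tns3 (chromosome 11: 8381631 to 8614681, reverse strand), a tensin that links integrins to the cytoskeleton, was at 101, 106 and 122 CPM in SS + RSD mice and at 83.7, 92.4 and 100 in SS mice, without overlap, and at 88.6, 93.5 and 95.9 in AA + RSD and 93.4, 98.9 and 113 in AA mice. Its interaction was 0.35 ± 0.09 (unadjusted p = 0.000573, adjusted p = 1). Pfkfb3, which makes the main activator of glycolysis, was at 41.7, 49.1 and 57.5 CPM in SS + RSD and 40.3, 43.7 and 49.3 in SS mice, and at 33.4, 38.2 and 39.4 in AA + RSD and 34.1, 44.9 and 55.1 in AA mice (0.49 ± 0.14). Specc1 (0.34 ± 0.1), the exocyst subunit gene Exoc6b (0.45 ± 0.13) and the phosphatase gene Ptpn11 (0.33 ± 0.1), whose product is SHP2, were also more positive in SS mice. None of these genes overlaps another strand's exons by more than 1.89%.

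**Figure D3:**
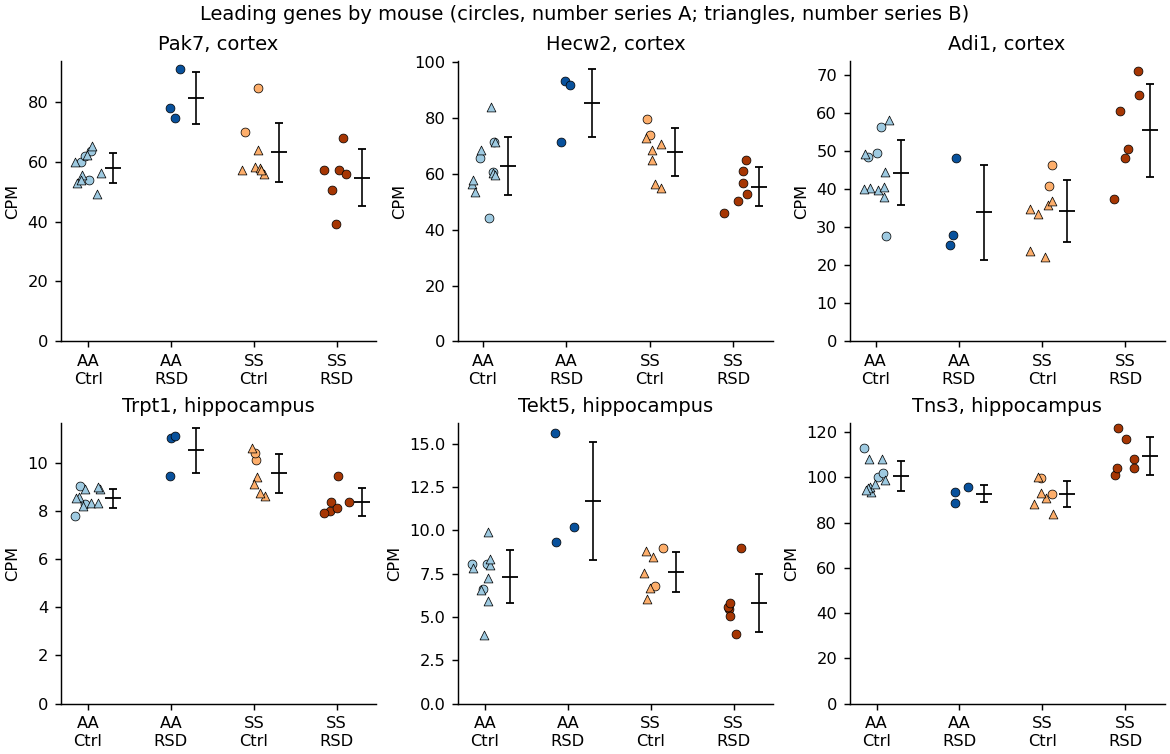
CPM of 3 leading cortical and 3 leading hippocampal genes, with 1 point per mouse, circles for number series A and triangles for series B; the bar beside each group is the mean ± SD. AA + RSD mice lie above AA mice for Pak7 (74.5 or more against 65.3 or less) and Trpt1 (9.42 or more against 9.02 or less), and SS + RSD mice above SS mice for Tns3 (101 or more against 100 or less). The genes were chosen by their small p, so these separations are no further support, and none was called.

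Pcdhgb8, a protocadherin of the gamma cluster on chromosome 18 (37894854 to 37974923, forward strand), had a positive interaction in both tissues that was not called, and its levels differed widely between mice of a group. In the hippocampus it was at 0.68, 0.856 and 0.916 CPM in the 3 AA + RSD mice and at 5.85, 7.32 and 13.1 in SS + RSD mice. Controls overlapped both, at 0.737, 5.85 and 6.67 in AA and 0.732, 3.02 and 8.99 in SS mice. Hippocampal Pcdhgb8 ran from 0.68 to 1.25 CPM in the lower mice, was at 3.02 in the SS mouse 9903, and was at 5.43 or more in all others. Of the 27 mice with both tissues, 8 were under 1 CPM in both and 17 were at 1 CPM or more in both. The tissues are therefore no separate support for this gene. The interaction was 3.35 ± 1 (unadjusted p = 0.00252, adjusted p = 1) in the hippocampus and 3.02 ± 1.02 (unadjusted p = 0.00623) in the cortex. The count is uncertain because 45.9% of its exonic bases are shared with other genes of the cluster on the same strand. Pcdhb6 and Pcdhb7, of the neighboring beta cluster, also had positive interactions with an unadjusted p under 0.05 in both tissues (0.91 and 0.85 in the cortex, 0.88 and 0.6 in the hippocampus). These values come from the same mice and are no separate support either.

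Of the genes tested in both tissues whose mean log2 CPM was 1 or more in each (13079), 27 had an unadjusted p under 0.05 in both, 4.95% of the 546 of the cortex and 7.78% of the 347 of the hippocampus, and 22 of the 27 had the same sign. The libraries of both tissues came mostly from the same mice, so this is a description and not a repeat in other animals. Among the 22 were Fkbp5, Insig1 and Mvd, members of the lists for the glucocorticoid response and cholesterol synthesis, beside Pcdhgb8 and Adi1. The lists were chosen with earlier results of these data known, so this membership is no further support.

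Fkbp5 (chromosome 17: 28618058 to 28737521, reverse strand), the glucocorticoid-induced co-chaperone of the glucocorticoid receptor, had a positive interaction in both tissues that was not called in either. In the cortex it was at 30.1, 30.8 and 37.1 CPM in AA + RSD mice, within the range of AA mice (27.1, 46.1 and 57.3). It was at 31.3, 35.8 and 51.5 in SS and 31.9, 45.1 and 49.9 in SS + RSD mice. The difference was -0.45 ± 0.17 in AA and 0.18 ± 0.14 in SS mice, an interaction of 0.64 ± 0.22 (unadjusted p = 0.00777, adjusted p = 0.931), and 0.9 in series A only (unadjusted p = 0.00163). In the hippocampus it was at 57.4, 64.8 and 72.6 CPM in AA + RSD and 69.9, 80.6 and 99.1 in AA mice, and at 63.6, 75.6 and 90.8 in SS + RSD and 65.6, 80.9 and 82.1 in SS mice, an interaction of 0.35 ± 0.15 (unadjusted p = 0.0218, adjusted p = 1). In the cortex it depended on the exchange: with the labels as given it was 0.2 (unadjusted p = 0.458), and it lay between 0.58 and 0.9 under all others.

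Of 24 genes of the glucocorticoid response, 0 were called in either tissue (background 0% of genes). In the cortex 3 had an unadjusted p under 0.05, all positive (against 4.12% of all genes), and the median interaction was 0.23, beside 0.02 over all genes tested. These were Fkbp5, Sult1a1 (0.7 ± 0.27), a sulfotransferase, and the cell cycle inhibitor gene Cdkn1a (0.61 ± 0.27). Sult1a1 was at 5.66, 8.51 and 11.1 CPM in AA + RSD and 11.6, 12.9 and 16.4 in SS + RSD mice, with 6.43, 12.1 and 13.4 in AA and 8.2, 9.66 and 13.7 in SS mice. In the hippocampus 1 of 24 had an unadjusted p under 0.05 (against 2.54% of all genes) and the median was 0.15, beside -0.01 over all genes. The cortical median was 0.03 with the labels as given.

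Genes of cholesterol synthesis had mostly negative interactions in both tissues. Of 23 genes, 0 were called, while 18 in cortex and 19 in hippocampus had a negative interaction, beside 9272 of 19811 and 10776 of 20532 over all genes tested, with medians of -0.18 and -0.19. At an unadjusted p under 0.05 there were 5 negative in the cortex (against 4.12% of all genes), and 3 negative and 1 positive in the hippocampus (against 2.54%). Insig1 (chromosome 5: 28276315 to 28283668, forward strand), which holds the sterol-sensing SREBP complex in the endoplasmic reticulum, was at 84.5, 93.1 and 96 CPM in the cortex of AA + RSD mice and at 52.8, 66.1 and 87.6 in AA mice. In SS mice it was at 53.9, 65 and 84.2 and in SS + RSD mice at 46.9, 64.4 and 70.7. The interaction was -0.52 ± 0.17 (unadjusted p = 0.00543, adjusted p = 0.931) in the cortex and -0.41 ± 0.19 (unadjusted p = 0.0416, adjusted p = 1) in the hippocampus, where AA + RSD mice were at 71.4, 75.5 and 79 CPM and AA mice at 43.3, 49.3 and 67.9, without overlap.

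Mvd, an enzyme of the mevalonate pathway, was at 21, 24.3 and 26.6 CPM in the cortex of AA + RSD mice and at 12.9, 16.9 and 22.2 in AA mice, with 13, 16.4 and 22.9 in SS and 15.3, 17.7 and 21.8 in SS + RSD mice. Its interaction was -0.41 ± 0.18 in cortex and -0.33 ± 0.15 in hippocampus, and 20.5% of its exonic bases overlap a gene of the other strand. Fdps (-0.97 ± 0.34) and Lss (-0.36 ± 0.17) were further cortical members, and Fdps lay at 0.642 to 2.71 CPM in all groups. In the hippocampus Tm7sf2 had -0.65 ± 0.27. In AA mice the median difference of the list was 0.23 in cortex and 0.3 in hippocampus, and in SS mice 0.07 and 0.13. In series A only the median interaction was -0.22 and -0.29.

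**Figure D4:**
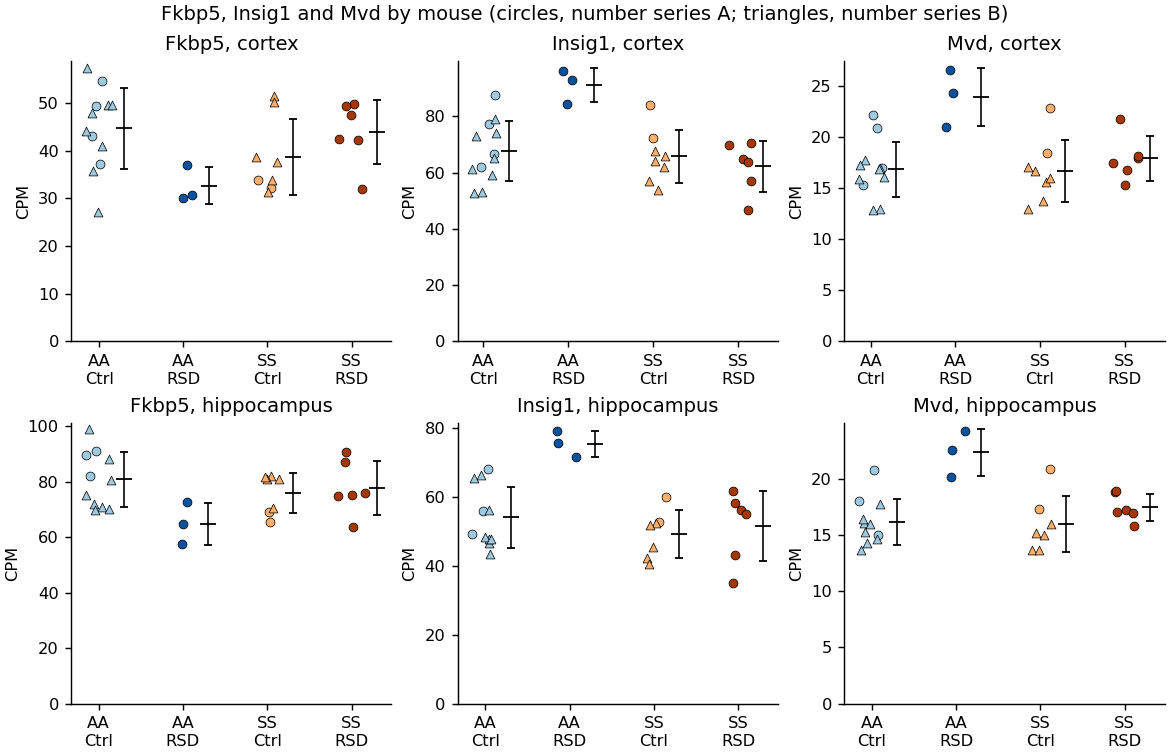
CPM of Fkbp5, Insig1 and Mvd in the cortex (upper row) and hippocampus (lower row), with 1 point per mouse, circles for number series A and triangles for series B; the bar beside each group is the mean ± SD. In the hippocampus AA + RSD mice lie above AA mice for Insig1 (71.4 or more against 67.9 or less), while SS + RSD and SS mice overlap in every panel. The genes were chosen by their small p, so this separation is no further support, and none of these interactions was called.

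No neuronal list held a called gene. Of 26 immediate early genes, which neurons transcribe soon after activity, 20 had a positive interaction in the hippocampus (median 0.15, against 9756 of all 20532 genes). There 3 had an unadjusted p under 0.05 (against 2.54% of all genes): Egr3 (0.4 ± 0.14), Egr1 (0.51 ± 0.22) and Dusp6 (0.35 ± 0.15). Egr3 was at 73.1, 74.6 and 74.9 CPM in AA + RSD and 65.8, 80.3 and 105 in AA mice, and at 70.5, 93.8 and 109 in SS + RSD and 69.9, 78 and 86.7 in SS mice, with overlap throughout. With the labels as given Egr3 and Egr1 were -0.05 and -0.08. In the cortex 19 were positive (median 0.21, against 10539 of all 19811 genes) and 0 of the 26 had an unadjusted p under 0.05 (against 4.12%). In series A only the median of the list was 0.03 in the hippocampus and 0.08 in the cortex.

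Of 30 genes of glutamate receptors and their scaffolds, 20 were negative in the cortex (median -0.05, against 9272 of all 19811 genes). There 4 had an unadjusted p under 0.05 (against 4.12% of all genes), among them the AMPA receptor gene Gria4 (-0.31 ± 0.11) and the scaffold gene Shank3 (-0.26 ± 0.11). In the hippocampus 25 were positive (median 0.15, against 9756 of all 20532 genes), and 1 had an unadjusted p under 0.05 (against 2.54%). The serotonin receptor gene Htr5b had the smallest p of all list members in the cortex (unadjusted p = 0.000324, adjusted p = 0.931, edgeR's quasi-likelihood test). It was at 0.569, 0.798 and 1.12 CPM in AA + RSD and 0.754, 1.37 and 2.78 in AA mice, and at 1.33, 1.91 and 2.31 in SS + RSD and 0.534, 0.963 and 1.41 in SS mice, an interaction of 1.62 ± 0.4. In the hippocampus, where its level was higher in every group, the interaction was 0.3 ± 0.32, and with the labels as given the cortical value was 0.28. The 10 hippocampal markers had a median interaction of 0.59 in the same cortical libraries (8 of 10 positive, 2 at an unadjusted p under 0.05, -0.26 in AA and 0.12 in SS mice), and their mean log2 CPM there ran from 0.62 to 0.88 in AA + RSD and from 0.72 to 1.61 in SS + RSD mice. Their part in the result for Htr5b was not tested.

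Immune and glial lists held few members at an unadjusted p under 0.05. Of 16 genes of antigen presentation, 12 had a positive interaction in the cortex (against 10539 of all 19811 genes). There 3 had an unadjusted p under 0.05, all positive (against 4.12% of all genes). These were Cd74 (1.8 ± 0.7), H2-Eb1 (1.65 ± 0.65) and H2-Ab1 (1.77 ± 0.77), which encode the invariant chain and the class II molecules it accompanies. Cd74 was at 6.69, 8.9 and 60.1 CPM in SS + RSD mice, highest in mouse 9615, at 2.83, 5.57 and 8.88 in SS mice, and at 2.36, 3.46 and 3.59 in AA + RSD mice, within the 1.55 to 7.32 of AA mice. Without mouse 9615 the interactions of Cd74, H2-Eb1 and H2-Ab1 were 0.89, 0.89 and 1.1 (unadjusted p = 0.0885, 0.0755 and 0.108), and in series A only 1.3, 1.34 and 1.26 (unadjusted p = 0.23, 0.173 and 0.232). The list's median of 0.23 was 0.02 in the cortex without that mouse, and in the hippocampus 0.24 and -0.72. Of 18 genes of homeostatic microglia, 13 had a positive interaction in cortex (against 10539 of all 19811 genes). Among these, Selplg (0.56 ± 0.23) and Tmem119 (0.44 ± 0.19) had an unadjusted p under 0.05 (against 4.12% of all genes), and 0 genes of the list in hippocampus did (against 2.54%). Of 21 inflammatory mediators tested in cortex and 23 in hippocampus, 1 and 2 had an unadjusted p under 0.05 (against 4.12% and 2.54% of all genes). Rela, a subunit of the transcription factor NF-kappaB, was negative in both tissues (-0.23 ± 0.11 and -0.29 ± 0.12), and Nlrp3, a sensor of the inflammasome, was positive in the hippocampus (0.78 ± 0.32).

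The study names 34 of the genes examined, partly from results on these samples, so their counts are not independent evidence. It compared pairs of groups, such as SS with AA mice (Foxf1) or minocycline-treated with untreated SS + RSD mice (Bdnf and St3gal2). It reports no interaction of genotype and RSD for these genes, so the counts given here do not test its comparisons. Of 33 tested in cortex and 34 in hippocampus, 0 were called, and 1 in each tissue had an unadjusted p under 0.05 (against 4.12% and 2.54% of all genes). Foxf1, a forkhead transcription factor gene, was at 0.842, 1.1 and 1.14 CPM in AA + RSD and 0.311, 0.828 and 1.23 in AA mice, and at 0.887, 1.11 and 1.26 in SS + RSD and 1.19, 1.65 and 2.1 in SS mice (cortex, -0.92 ± 0.35, adjusted p = 0.931). St3gal2, a sialyltransferase of gangliosides, had 0.23 ± 0.11 in the hippocampus (adjusted p = 1). For the sirtuins the largest was -0.51 ± 0.39 for Sirt4 in the cortex; its difference was -1.16 ± 0.26 in SS and -0.65 ± 0.32 in AA mice, so the genotypes had the same sign. The 39 sphingolipid genes had medians of -0.01 and 0.01, with 0 and 1 at an unadjusted p under 0.05. The interaction of Csf1r was 0.27 ± 0.17 in cortex and 0.26 ± 0.18 in hippocampus, that of Ctnnb1 0.18 ± 0.15 and 0.09 ± 0.11, that of Vcp 0.05 ± 0.13 and 0.1 ± 0.12, and that of Bdnf 0.24 ± 0.22 and 0.1 ± 0.17.

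Over the 35 lists, 41 of 704 list genes (5.82%) had an unadjusted p under 0.05 in the cortex, against 4.12% of all genes, and 18 of 712 (2.53%) in the hippocampus, against 2.54%. Some list medians lay far from the median of all genes (0.02 and -0.01) while 0 of their members were called. In the cortex all 13 mitochondrially encoded genes were positive (median 0.92), and the median was 0.49 without mouse 9621, 0.59 without mouse 5391 and 0.34 in series A only; in the hippocampus it was -0.11. The 53 ribosomal protein genes had a median of 0.39 and the 55 nuclear genes of the respiratory chain 0.24 in the cortex, and 0.25 and 0.04 in series A only. Their hippocampal medians were -0.08 and -0.07, and -0.15 and -0.21 in series A only. The striatal markers were at 0.58 in the cortex, with 12 of 12 positive, and at -0.57 without mouse 9621. The cortical markers were at -0.33 in the cortex, with 9 of 10 negative, and the hippocampal markers at 0.59 there, which was 0.33 without mouse 9643. Genes of meningeal fibroblasts were at -0.67 in the hippocampus, with 12 of 12 negative, and at -1.07 in series A only. Red cell genes were at 0.68 and 0.5, and at 0.05 and 0.08 without the AA mice 5844 and 9631. The part of these lists in the interaction of other genes was not tested. Nuclear-retained RNAs had negative median differences between RSD and control mice in both genotypes (-0.56 in SS and -0.47 in AA mice in the cortex, -0.57 and -0.44 in the hippocampus), and their interaction was -0.13 and -0.12. The share of reads outside genes moved with the same groups: for cortical libraries its median was 4.24% in series A, which holds all RSD mice, against 9.69% in series B. For hippocampal libraries the medians were 4.55% and 8.29%. Its part in these differences was not tested.

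**Figure D5:**
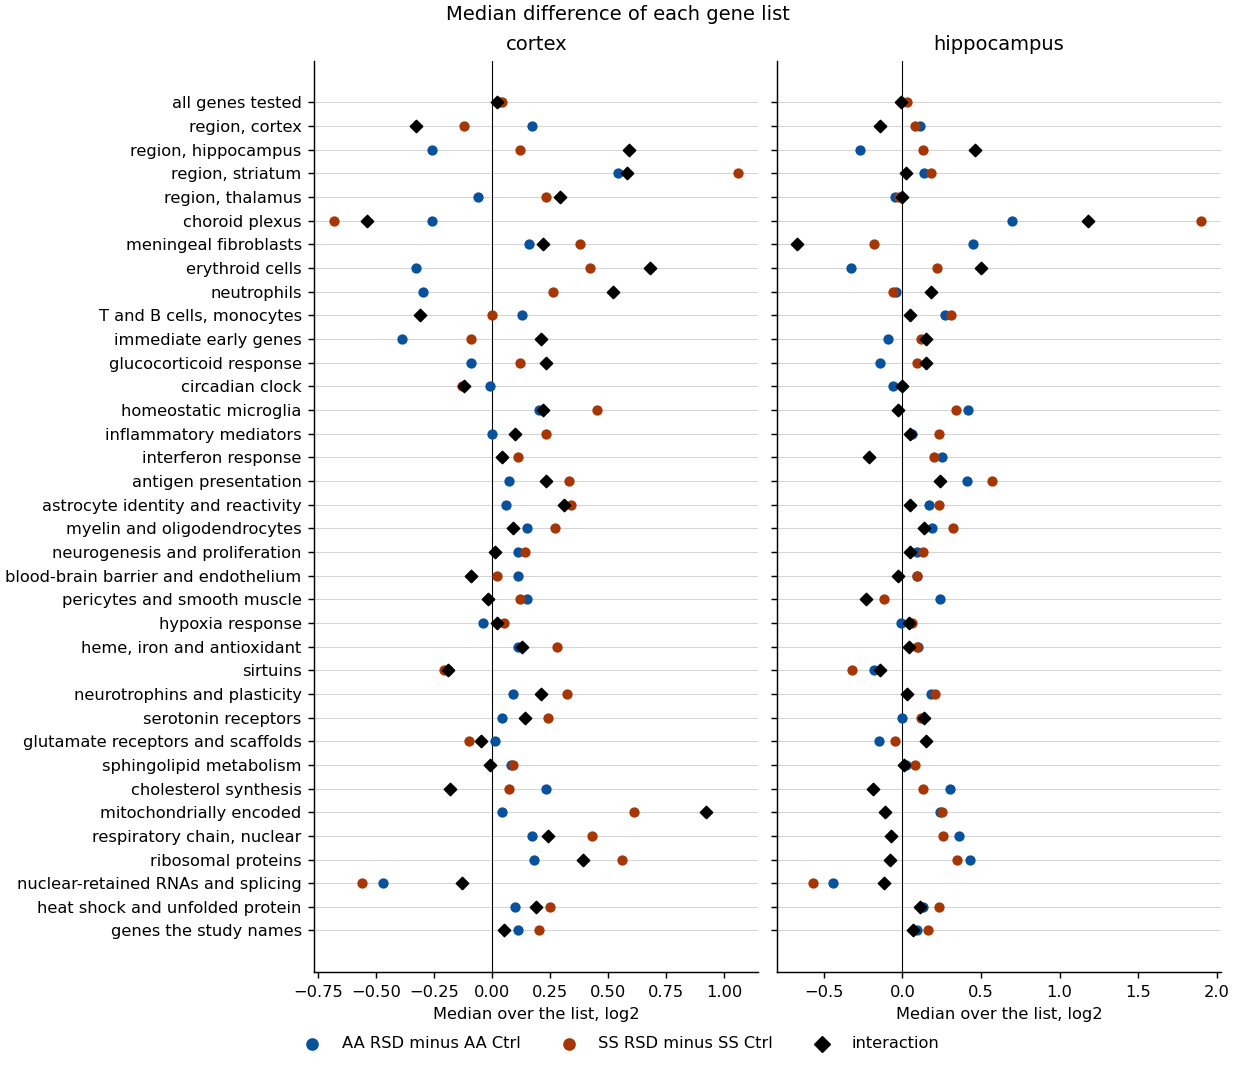
Median over each gene list of the difference with RSD in AA mice (blue), in SS mice (brown) and of the interaction (black diamonds), in log2 units, for cortex and hippocampus; no error is drawn, since genes of a list are not replicates. Most lists lie near the median of all genes; the mitochondrially encoded genes (0.92) stand apart in the cortex and the choroid plexus genes (1.18) in the hippocampus, and both depended on single mice.

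The interaction itself was compared between the tissues in 1 model of 8 groups. Of 21153 genes 0 (0%) were called for a difference between hippocampus and cortex by edgeR's quasi-likelihood test, also with DESeq2 and the likelihood-ratio test, and 613 (2.9%) had an unadjusted p under 0.05, 430 of them more positive in the hippocampus. That split depended on single mice: it was 215 more positive and 247 more negative without the SS + RSD mouse 5354, 229 and 207 without the SS + RSD mouse 9616, and 256 and 229 without the SS mouse 5349. With the mouse as a block, for the mice that gave both tissues, 1 gene was called and 1562 had an unadjusted p under 0.05. The gene, named after its values were seen, was Gm13532, a processed pseudogene (chromosome 2: 57519001 to 57519240, reverse strand), with -6.21 (adjusted p = 0.00146). It was under 1 CPM in 22 of 27 mice in cortex and 20 in hippocampus, 20 of them in both, and from 2.43 to 7.03 CPM in the other hippocampal libraries. The tissues differed in SS mice, where 8 of 8 cortical (0.0351 or less) and 5 of 7 hippocampal libraries were under 1 CPM. In AA mice these were 10 of 12 and 9 of 11. In both tissues 4 of 6 SS + RSD and 2 of 3 AA + RSD mice were under 1 CPM. Foxo3 had the smallest p without the block (0.6 ± 0.16, from -0.41 in cortex and 0.19 in hippocampus, adjusted p = 1; 0.342 with the block). The difference for Pak7 was 0.78 ± 0.22, from -0.7 and 0.08 (adjusted p = 1; 0.406 with the block).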

How the data were processed

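Bulk RNA of cortex and hippocampus was sequenced from single ends after poly(A) selection with a strand-specific kit. STAR and the GRCm39 genome were used by the authors, who deposited raw counts per GENCODE gene in separate cortical and hippocampal tables; the strand setting, the annotation release and the STAR version are not given in the sources used here. Each table held 55416 genes, 5111 of them without a symbol, and 4 summary lines that name no gene, which held a median of 26.6% of reads in the cortex and 28.5% in the hippocampus and stayed out of library sizes and tests. 134 columns matched a labelled library and 3 matched none and were not used; 1 library whose labels name different tissues was left out. The summary lines hold unmapped, multimapping, unassigned and ambiguous reads. A pair of columns labelled as different minocycline-treated mice held identical counts in each table; neither mouse is among the 56 libraries, and both were left out of the alternative with all groups.

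The model was fitted with edgeR 4.0.16 under R 4.3.3: filterByExpr by group (minimum count 10, minimum total count 15), TMM, and the quasi-likelihood test of the interaction over the 4 untreated groups, with Benjamini-Hochberg adjustment over all genes and a call at 0.05. Log2 CPM used a prior count of 2. Levels are CPM with TMM library sizes, and values after ± are standard errors of log2 differences. Alternatives were the labels as given, all groups of a tissue in 1 model, series A only, RLE size factors, no filter and an unadjusted p. The number series or the share of reads outside genes was also used as a term. Each RSD mouse and the SS mice 5349 and 5353 were left out in turn, and the AA mice 5844 and 9631 together. Further alternatives were the tests of DESeq2 1.42.0 and of edgeR's likelihood ratio. The fits were tested on simulated data.

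Both tissues of a mouse carry its number in the labels, and the number was taken to pair tissues of 1 animal. Their deviations from the group means correlated over 13079 genes in all 27 mice (r from 0.12 to 0.89, median 0.56). Libraries of different mice were not compared in this way, so the correlation does not test the pairing. The labels call the samples separate mice; p-values measure the spread between them. The number of mice, from 3 AA + RSD up to 12 AA, sets the precision.

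Named genes are, per tissue, up to 12 called genes of each direction, or, where fewer are called, up to 6 of smallest unadjusted p with a symbol and a mean log2 CPM of at least 1, then up to 3 members of each list described, and genes the study names. Some genes that this rule selects are not reported here. Members, lists and rules were chosen with earlier results of these data known. Positions are those of GENCODE vM39 on GRCm39, matched by gene ID.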

Additional observations from a re-analysis of the deposited data

Results flagged for a closer look

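In 92 groups of 4 to 10 mice, the highest or lowest mouse was compared with the spread of its group by Dixon's ratio, which chance passes in about 1 of 20 groups. 10 groups had such a mouse. Among the leading genes, in log2 CPM, Samd14 was at 5.77 in the cortex of the SS + RSD mouse 9621, with the nearest other mouse at 5.16; Il1rapl2 was at 2.01 in the cortex of the SS mouse 5785 (1.78); Pcdhgb8 was at 3.71 in the hippocampus of the SS + RSD mouse 9616 (2.98); Ptpn11 was at 7.48 in the hippocampus of the SS mouse 9903, below the others (7.73); and Trpt1 was at 3.25 in the hippocampus of the SS + RSD mouse 9621 (3.07).

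Among the marker lists, in mean log2 CPM, the cortical markers were at 4.23 in the cortex of mouse 9621, below the other SS + RSD mice (5.21). The thalamic markers were at 2.97 in the hippocampus of the SS + RSD mouse 5400, below the others (3.34). The choroid plexus markers were at 3.4 in the cortex of the SS mouse 9903 (-0.06). In the SS mouse 5349, neutrophil genes were at -0.88 in the cortex (-2.2) and the genes of T and B cells and monocytes at -0.69 in the hippocampus (-1.35). The part of these libraries in the interaction was measured by leaving mice 9621, 5400, 9616 and 5349 out in turn, which called 0 genes in either tissue; for mice 5785 and 9903 it was not tested.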

How the results depend on the processing

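The count of called genes was 0 in the cortex, in the hippocampus and for the difference between tissues under every alternative but the following. Labels as given called 9 genes in the cortex, DESeq2 called 1 and edgeR's likelihood-ratio test 1 there, and the replicate block of the mouse called 1 gene for the difference between tissues; it pairs the tissues of an animal and exists for that comparison only. An unadjusted p under 0.05 gave 816, 521 and 613 genes. Leaving out each RSD mouse or the SS mice 5349 and 5353 in turn, or the AA mice 5844 and 9631 together, called 0 in each comparison. The other control mice were not left out. Among values of named genes under alternatives, 1 turned, Il16 in the cortex at -2.05 with labels as given, 2 crossed the threshold and 543 kept direction and side. The named genes were chosen in the main fit and the alternatives reuse its libraries, so this count is no independent support. Of the medians of lists, 1451 stayed within and 19 moved by more than the spread between mice; the cause was not tested. With 3 AA + RSD mice, small interactions could be missed, and in the main fit interactions larger than the half-width of their interval were not called either.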
